A study of Ovis aries with 95 samples.

Results

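The brainstem of newborn lambs was compared with that of fetuses close to term. The comparison used 8 of the 95 arrays of a sheep brain series, chosen by their labels alone: 4 brainstem samples from 1 day of life outside the uterus (newborn) and 4 from fetuses labelled 145 days of gestation (145 d). The series profiled cortex, brainstem, hypothalamus and hippocampus in fetuses labelled 80, 100, 120, 130 and 145 d and in newborns, to follow gene expression in the ovine brain up to and across birth. No treatment, genotype or breed is given for either group, so the groups differ by label in age and in having been born. The study's methods state that every age group included twins, which the labels do not mark, and that no ewe had signs of labor. The 4 samples of a group were taken as separate animals. The spread behind each p-value was estimated over all 24 brainstem arrays at 6 ages, and it measures differences between samples only, some of which may be technical. It is not the spread of the newborns alone, who varied more. Mean correlations of an array with the rest of its group were 0.882 to 0.952 for newborns and 0.99 to 0.992 at 145 d. The SE and p-value can therefore understate the spread of genes that varied among the newborns.

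Birth exchanges placental supply of oxygen, glucose and hormones for breathing and feeding, and brings first contact with microbes. The brainstem holds the nuclei for breathing, heart rate, arousal and swallowing. Its resident immune cells are the microglia, and its vessels and astrocytes form a barrier to blood. Late in gestation the fetal adrenal gland releases more cortisol, which acts in brain through the glucocorticoid and the mineralocorticoid receptors. Each sample was a whole dissected brainstem, so that fewer cells of a type and less RNA per cell cannot be told apart.

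The labelled tissue was checked against genes that mark the hindbrain. HOXA5, a homeobox factor of the hindbrain and spinal cord, lay between 8.49 and 9.61 log2 intensity on the 8 brainstem arrays by one of its probes, against 6.29 to 6.52 on the 8 cortex arrays, 6.24 to 6.51 in hippocampus and 6.30 to 6.52 in hypothalamus at the same ages. HOXA4 ranged from 7.39 to 8.58 in brainstem and reached 6.73 at most in the other regions. The serotonin transporter SLC6A4, made by neurons of the raphe nuclei, ranged from 6.72 to 7.90 in brainstem by one probe and reached 6.66 at most elsewhere, but by the other probe its lowest brainstem value (6.48) lay within the range of the other regions. SLC6A2, the noradrenaline transporter, did not set brainstem apart (mean 6.84, against 6.98 in hypothalamus and 6.87 in hippocampus), and GATA3 overlapped with hippocampus. The HOX probes therefore separated brainstem from the other regions on every array, and none of the 5 brainstem identity genes tested (GATA3, HOXA4, HOXA5, SLC6A2 and SLC6A4) was called across birth, in a list too short for that to say much beside 4.97% of all genes called higher and 1.85% lower.

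The probes behind the results that follow are 60-base oligomers. The sequences below are those of the genes that carry the main rises and falls. Capitals mark the stretch that the gene's second probe on the array also holds, so that these pairs are close to repeats of 1 measurement. Those of 30 bases are the start of a longer probe.
VEGFA: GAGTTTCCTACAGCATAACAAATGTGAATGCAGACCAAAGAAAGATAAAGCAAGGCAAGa
HSP70.1: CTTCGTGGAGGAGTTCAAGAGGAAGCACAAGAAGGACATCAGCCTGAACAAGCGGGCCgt
CHI3L1: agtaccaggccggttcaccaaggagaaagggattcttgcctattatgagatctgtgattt
GNLY: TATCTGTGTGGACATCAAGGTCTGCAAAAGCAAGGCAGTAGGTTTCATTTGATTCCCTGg
MHC class I, record TC16824: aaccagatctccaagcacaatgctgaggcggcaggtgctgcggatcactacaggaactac
MHC class I, record AJ874684: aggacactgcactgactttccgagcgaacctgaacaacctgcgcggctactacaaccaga
OVAR: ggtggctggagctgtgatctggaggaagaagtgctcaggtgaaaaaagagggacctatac
immunoglobulin mu chain, first probe: ctctaaccatgctgatgcgtgagatgtcgc
immunoglobulin mu chain, second probe: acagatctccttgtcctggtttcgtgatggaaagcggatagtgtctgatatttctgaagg
mineralocorticoid receptor, first probe: ttaactatgccatgtcgtttctgggatcgt
mineralocorticoid receptor, second probe: cttagaaacatgttcctgttcctctggata
record FE028749: atagtctagtcagtcagaattttacttggt
record EE751760: ctgtttagctgaaaaacaggtggtaaattt

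Before the genes, 1 array needs description. On newborn replicate 4 a round area in the middle of the array was dim, covering 3176 of the 15208 gene spots (20.9%), in rows 43 to 155 of 192 and columns 20 to 60 of 82. Inside it, this array's median lay 0.99 log2 below the other newborn arrays, and outside it 0.35 above them. With the area left out before normalization, the difference outside was 0.05. The same RNA can be read inside and outside the area through 94 pairs of probes that share at least 55 bases: the probe inside was lower than its partner on newborn replicate 4 in 90 of the 94 pairs, with a median difference of -1.05, while the medians were 0.21, 0.14 and 0.19 on newborn replicates 1, 2 and 3. The main counts are therefore also given without newborn replicate 4. For a probe inside the area, leaving out the area or the array removes the same value, so only the latter is given for most. Newborn replicate 4 had a mean correlation of 0.882 with the other newborn arrays. The correlations among newborn replicates 1 to 3 were 0.982, 0.984 and 0.984, and each 145 d array had a mean of 0.990 to 0.992 with the rest of its group.

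**Figure D1:**
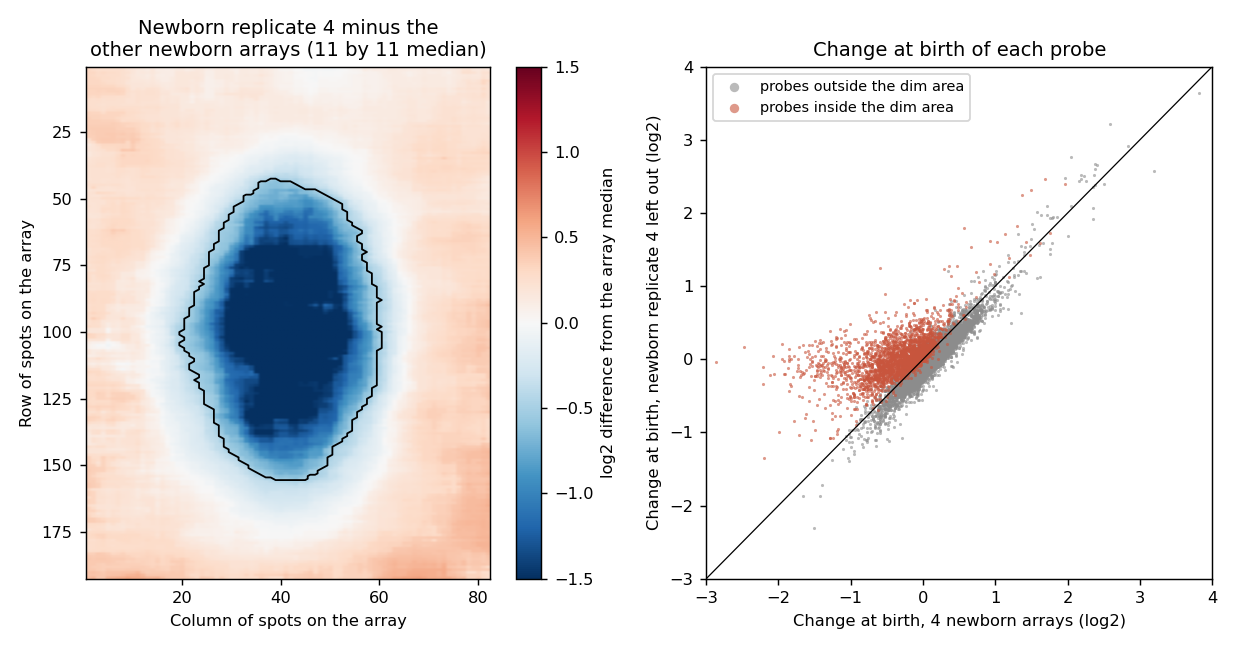
Left, log2 signal of newborn replicate 4 minus the mean of the other newborn arrays, as the median of a window of 11 by 11 spots at each place on the array, relative to the array median; the line encloses the dim area of 3176 gene spots. Right, change at birth (log2, newborn minus 145 d) of each of the 13311 probes with all newborn arrays (horizontal) and with replicate 4 left out (vertical); red marks the 2845 tested probes inside the area, which hold 58 of the 143 falls and 6 of the 498 rises.

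Of 13311 probes tested, 641 (4.82%) were called at an adjusted p under 0.05 (limma, Benjamini-Hochberg), where 498 (3.74%) were higher and 143 (1.07%) were lower 1 d after birth. The median rise was 0.63 log2 (1.55-fold) and the median fall -0.67. Without newborn replicate 4, 616 probes were called (4.63%), of which 371 (2.79%) were higher and 245 (1.84%) lower. All 641 kept their direction without it, and 269 of the 498 and 105 of the 143 were called both ways. With only the dim area left out, 487 probes (3.66%) were higher and 263 (1.98%) lower. The area held 58 of the 143 falls and 6 of the 498 rises among its 2845 tested probes, so the count of falls and the sizes of many of them moved with this array. Among the genes with a symbol, 43 of 866 rose (4.97%) and 16 fell (1.85%), through 53 (3.91%) and 17 (1.25%) of their 1357 tested probes. Without newborn replicate 4 the share was computed over probes only. It is a looser yardstick for counts of genes, since any called probe makes a gene count. Each of the 3 slides held both ages, and 484 of the 498 rises and 139 of the 143 falls had 1 direction on all 3 slides. The calls came from these same arrays, so the agreement is partly built in and does not test an effect of the slide. A fit on the 8 arrays alone, with its own estimate of the spread, called 1 probe (limma, 1344 at an unadjusted p under 0.05). Its changes are the same differences of group means by construction, and only the spread differs. With array weights 378 were called. The counts were also moved by other animals. There were 994 higher and 351 lower without newborn replicate 1, and 143 higher and 47 lower without 145 d replicate 4, the widest departures on either side.

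The steepest called rises belonged to probes known by record only. FE028749, an expressed sequence tag, read 6.40, 6.45, 6.32 and 6.58 at 145 d and 10.30, 9.90, 10.03 and 10.77 in the newborns, a rise of 3.82 ± 0.76 log2 (SE; adjusted p = 0.00802 by limma). At 145 d it was well above background on 1 of the 4 arrays. The newborn values were close together and far above the fetal ones, yet this record was also uneven at younger ages, with an SD of 1.87 at 80 d and 2.06 at 130 d. The probe for the secreted form of the immunoglobulin mu chain, the heavy chain of the first antibody class, read 7.55, 7.74, 6.75 and 7.26 at 145 d and 8.03, 11.16, 10.49 and 12.37 in the newborns. It rose by 3.19 ± 0.63 (9.10-fold, adjusted p = 0.00802 by limma), and by 2.57 without newborn replicate 4, its highest array (adjusted p = 0.0178). Newborn replicate 1 was just above the fetal arrays and the other newborns were far above. A second mu chain probe, inside the dim area, changed by 0.77 ± 0.28 and was not called (adjusted p = 0.128 by limma). It read 7.11, 8.44, 8.11 and 6.69 in the newborns, and without replicate 4 its change was 1.06 (adjusted p = 0.0236). This gene was named after its values were seen. Of 34 tested probes described as immunoglobulin chains, 1 was called, and their median change was 0.07 against 0.04 for all probes, of which 3.74% were called higher. There were 2 such calls without newborn replicate 4.

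MHC class I molecules present peptides from inside the cell to cytotoxic T cells. They were represented by 15 probes described as MHC class I, of which 5 rose and 13 had a change above 0. Their median change was 1.40, and 3.74% of all probes were called higher. The group was found by description after the values were seen. Record TC16824 read 6.54, 7.68, 6.92 and 6.51 at 145 d and 7.95, 10.81, 10.70 and 9.53 in the newborns, a rise of 2.83 ± 0.54 (7.12-fold, adjusted p = 0.00698 by limma). Its groups did not overlap, with newborn replicate 1 nearest to the fetal arrays. AJ874681 rose by 2.38 ± 0.67, AJ874675 by 2.25 ± 0.61, AJ874683 by 2.23 ± 0.61 and AJ874684 by 2.05 ± 0.53, with adjusted p between 0.0319 and 0.0431 by limma. In each of these, newborn replicate 2 was highest and newborn replicate 1 lowest of the newborns. Without newborn replicate 4 there were 6 class I calls. Of the 105 pairs of these probes, 23 share at least 15 bases, with 53 as the longest stretch, so that several are not independent readings. TC16824 and AJ874684 share no such stretch with another. The scanner software had marked the newborn replicate 2 spots of 8 of the 15 probes as outliers, which removed them from the fit. With those spots kept, an alternative chosen after seeing the data, 9 of the 15 were called.

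OVAR, a sheep MHC class I gene, has both readings. By one probe it read 12.79, 13.07, 13.05 and 12.76 at 145 d and 13.61, 17.84, 14.86 and 14.10 in the newborns, a difference of 2.19 ± 0.66 that missed the threshold (adjusted p = 0.0598 by limma) and passed it without newborn replicate 4 (2.52, adjusted p = 0.0421). The groups did not overlap. By the other, without its marked spot, the difference was 1.5 ± 0.51 (adjusted p = 0.0968). PSMB8, a subunit of the immunoproteasome that cleaves peptides for class I, read 7.65, 10.09, 8.71 and 8.74 in the newborns and differed by 1.24 (adjusted p = 0.0629). MHC class II molecules, which present peptides to helper T cells, had 9 tested probes by description, none of them called, with a median of 0.98 and a lowest adjusted p of 0.0841 by limma; 3 of the 9 had groups that did not overlap. For comparison, 764 of all tested probes (5.74%) lay above every fetal array in every newborn, and 358 (2.69%) lay below.

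Genes induced by interferon, the cytokine family released on viral and microbial contact, were uneven among the lambs. Of 6 tested, 2 rose and all 6 had a change above 0, with a median of 1.77, beside 4.97% of all genes with a symbol called higher. With the dim area left out, 1 was called. MX2, an antiviral GTPase, read 9.24, 8.07, 8.80 and 8.50 at 145 d and 11.31, 12.27, 9.80 and 9.07 in the newborns, a rise of 1.96 ± 0.47 (3.90-fold, adjusted p = 0.0225 by limma). The ubiquitin-like protein ISG15 read 10.29, 10.77, 10.43 and 9.46 at 145 d and 13.14, 14.81, 11.08 and 10.11 in the newborns, and the difference of 2.05 ± 0.68 missed the threshold (adjusted p = 0.0862). The same held for CXCL10, a chemokine for T cells, which differed by 2.59 ± 0.88 (adjusted p = 0.0961), and for MX1, which differed by 1.57 ± 0.53 (adjusted p = 0.0939). In MX1, MX2 and ISG15, newborn replicates 2 and 1 stood highest, in that order, and replicate 4 was within the range of the fetuses. Without newborn replicate 4, 5 of the 6 were called, with changes of 2.77 for ISG15, 3.22 for CXCL10 and 2.01 for MX1. In that comparison 2.79% of all probes (not genes) were called higher.

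**Figure D2:**
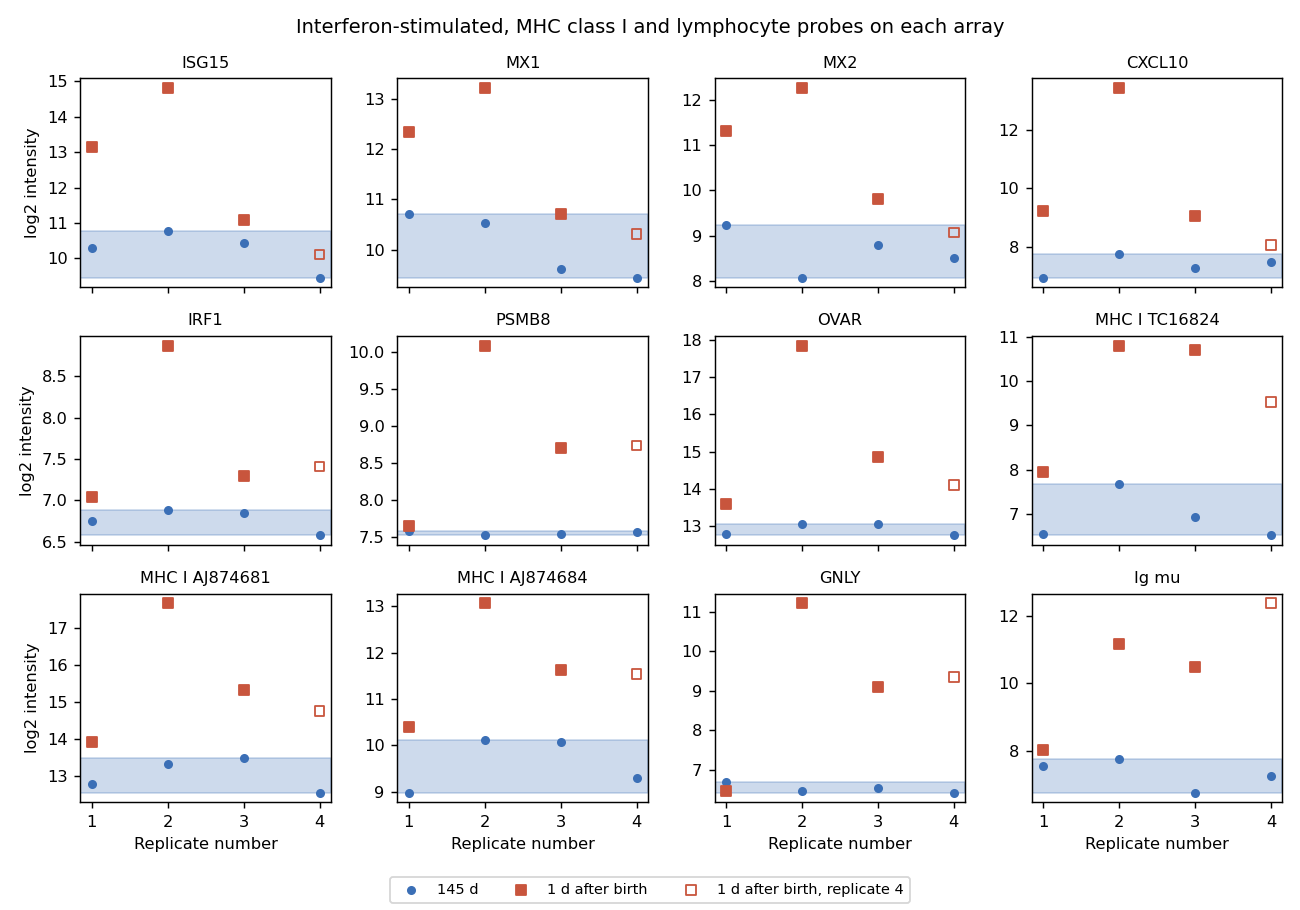
Log2 intensity of interferon-stimulated, MHC class I and lymphocyte probes on each brainstem array, by replicate number (numbers do not pair animals); the shaded band is the range of the 4 fetal arrays (blue circles) and squares are the newborns, open for replicate 4. Newborn replicate 2 is highest for all of these except the immunoglobulin mu chain, and newborn replicate 1 is high for ISG15, MX1 and MX2 but at the fetal level for GNLY (6.47).

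Of the 13 T cell and cytotoxic genes tested, GNLY and CD5 rose, 10 had a change above 0, and none was called without newborn replicate 4. The share of all genes with a symbol called higher was 4.97%. GNLY (granulysin), a protein that cytotoxic cells release to lyse microbes, was not well above background at 145 d, where it read 6.69, 6.47, 6.54 and 6.42. In the newborns it read 6.47, 11.21, 9.09 and 9.34, at least 5.63-fold higher (adjusted p = 0.0364 by limma), with 1 newborn at the fetal level. Its second probe, which shares 59 bases with the first and was well above background on 1 of the 4 fetal arrays, gave 2.35 ± 0.61 (adjusted p = 0.0324 by limma). Without newborn replicate 4 neither passed (adjusted p = 0.0639 and 0.0802). A further pair of probes, to another GNLY record, changed by 0.22 and 0.23 and was not called. CD5, a T cell surface receptor, rose by 0.70 ± 0.18 (1.62-fold, adjusted p = 0.0328 by limma), from 7.69, 7.96, 7.95 and 7.72 to 8.43, 8.47, 8.23 and 9.0. Without replicate 4 it changed by 0.54 and was not called (adjusted p = 0.0812). Its second probe read 6.55 on newborn replicate 4 inside the dim area, against 8.34 to 8.77 on the other newborns. The T cell receptor chain CD3E differed by 1.40 ± 0.43 by one probe (adjusted p = 0.0688) and by 0.43 by the other (adjusted p = 0.278).

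Of 14 microglial and myeloid genes tested, 6 rose, and all 14 had a change above 0, with a median of 0.42, beside 4.97% of all genes with a symbol called higher. Without newborn replicate 4, 5 were called, CD14, ITGB2 and SLC11A1 among them, beside 2.79% of all probes (not genes). CD14, the co-receptor for bacterial lipopolysaccharide, read 8.11, 7.97, 8.05 and 7.93 at 145 d and 8.39, 8.56, 8.83 and 9.40 in the newborns, a rise of 0.78 ± 0.15 (1.72-fold, adjusted p = 0.00773 by limma). ITGB2, the beta chain of the leukocyte integrins, read 9.40, 9.44, 9.55 and 9.31 at 145 d and 9.95, 10.57, 9.93 and 10.57 in the newborns, a rise of 0.83 ± 0.16 (adjusted p = 0.00762 by limma). By these probes every newborn lay above every fetus. The second ITGB2 probe lies in the dim area and read 8.51 on newborn replicate 4, against 10.36 to 11.14 on the other newborns. The iron and metal transporter SLC11A1 of phagosomes rose by 1.06 ± 0.24, from a mean of 7.23 ± 0.08 to 8.29 ± 0.82 (SD, n = 4; adjusted p = 0.0175 by limma). FCGR1A, the high-affinity receptor for antibody, rose by 0.76 (adjusted p = 0.0429), CD40, a costimulatory receptor, by 0.71 (adjusted p = 0.0344) and ITGAM, the partner of ITGB2 in the complement receptor, by 0.43 (adjusted p = 0.0415), all by limma. Of these 3, none passed without newborn replicate 4, and the second probes of CD40 (0.17, adjusted p = 0.453) and ITGAM (0.41, adjusted p = 0.0610) were not called. CYBB, the catalytic subunit of the phagocyte oxidase, was not well above background on the 145 d arrays and was not called.

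Of 31 tested genes for cytokines, chemokines and acute phase proteins, 7 rose, among them CD14 of the myeloid list, beside 4.97% of all genes with a symbol. The median change was 0.17, with 24 above 0. There were 5 calls without newborn replicate 4, and 4 with the dim area left out. CHI3L1, a secreted glycoprotein made by activated astrocytes and macrophages, read 8.59, 9.49, 9.06 and 9.03 at 145 d and 10.13, 11.36, 10.32 and 10.78 in the newborns. It rose by 1.60 ± 0.28 (3.04-fold, adjusted p = 0.00408 by limma), with no overlap, so that each slide by itself also gave a rise (1.09, 2.30 and 1.52). The prostaglandin receptor PTGER4 rose by 1.17 ± 0.30 (adjusted p = 0.0317 by limma), with 9.66, 10.10, 9.52 and 9.12 in the newborns against 8.76, 7.76, 9.23 and 7.96, so the groups overlapped. Another probe differed by 1.18 (adjusted p = 0.0603), and the other 6 tested probes of that name by -0.19 to 0.06. Smaller rises were measured in the adhesion molecules SELP (0.65 and 0.54 by its probes) and ICAM1 (0.65), the receptor TLR6 (0.47) and the cytokine IL1B (0.37). The other TLR6 probes were not called. SELP was not well above background at 145 d, so that it was at least 1.56-fold and 1.41-fold higher. The IL1B probe lies in the dim area, and with the area left out it was not called (adjusted p = 0.189). The cytokine IL10, a brake on inflammation, changed by 0.22 (adjusted p = 0.421) and 0.20 (adjusted p = 0.436) and was not called.

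Among heat shock and chaperone genes, 1 of 4 tested was called. HSP70.1, the inducible 70-kDa chaperone that refolds damaged protein, read 9.57, 9.22, 9.28 and 8.84 at 145 d and 10.04, 10.39, 10.85 and 11.03 in the newborns by one probe, a rise of 1.35 ± 0.24 (2.55-fold, adjusted p = 0.00425 by limma). By the other it rose by 1.42 ± 0.27 (adjusted p = 0.00740 by limma), and the 2 share 58 bases. Every newborn was above every fetus by both. The endoplasmic reticulum chaperone HSPA5 changed by 0.26 (adjusted p = 0.330) and 0.16 (adjusted p = 0.664), and HSP90AA1, the cytosolic chaperone, by 0.45 (adjusted p = 0.120). Of the 9 immediate early genes tested, 3 rose: JUND by 0.74 (adjusted p = 0.0134), JUNB by 0.41 (adjusted p = 0.0158) and CCN1 by 0.38 (adjusted p = 0.0250), all by limma, beside 4.97% of all genes. CCN1 was not called without newborn replicate 4 (adjusted p = 0.0512) or with the dim area left out (adjusted p = 0.0724), nor by its second probe, which shares 59 bases (0.34, adjusted p = 0.0778). JUNB has 1 probe inside the dim area and 1 outside, and newborn replicate 4 read 7.87 inside and 8.81 outside. FOS had its largest difference, 1.27, by a probe that read 10.58, 10.89, 11.90 and 12.45 in the newborns, and it was not called by any of its 4 probes (adjusted p = 0.131 for this one). ATF4, the transcription factor of amino acid and integrated stress responses, read 10.01, 10.45, 10.33 and 10.17 at 145 d and 10.98, 10.94, 10.92 and 11.48 in the newborns, a rise of 0.84 ± 0.14 (1.79-fold, adjusted p = 0.00306 by limma).

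**Figure D3:**
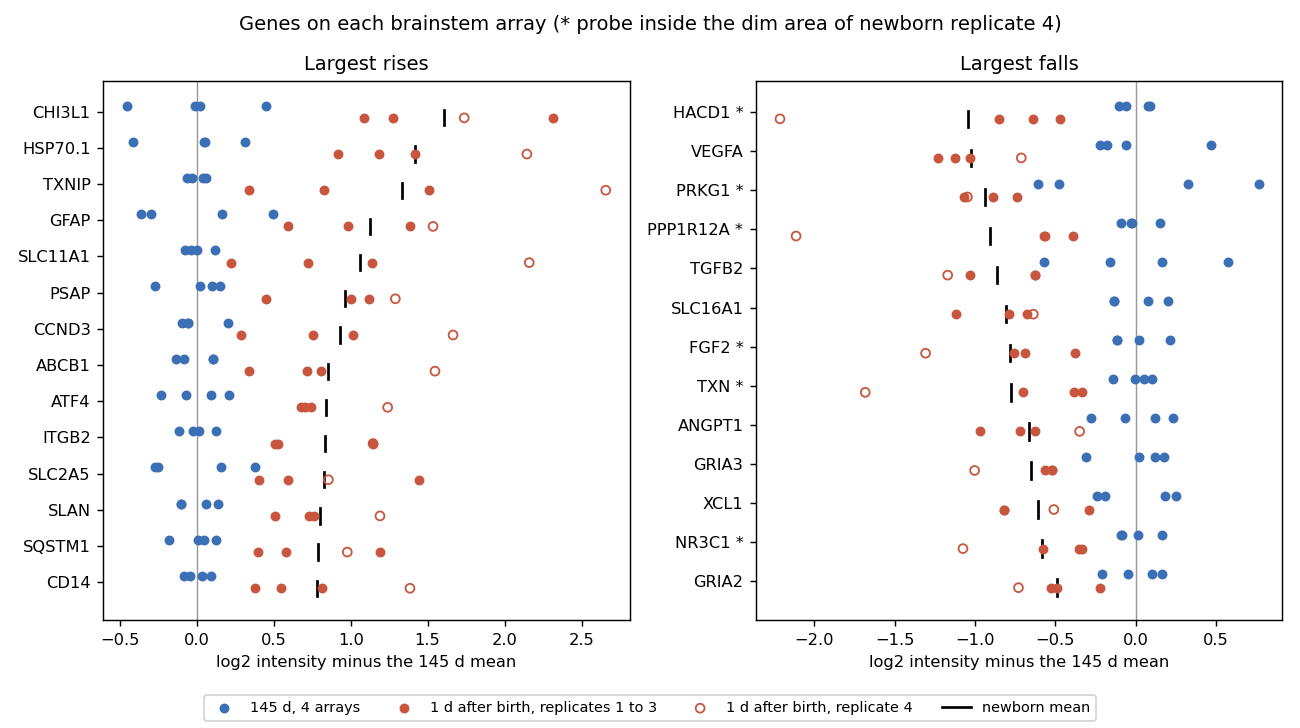
Log2 intensity on each array minus the 145 d mean, for 14 of the 15 genes with the largest rises and the 13 with falls whose groups do not overlap; blue circles are fetuses, red circles newborns (open, replicate 4), black bars newborn means. Asterisks mark probes inside the dim area, where the open circle lies far below the others in HACD1, PPP1R12A and TXN.

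Astrocyte, vessel, lysosome and cell cycle lists each had 1 gene called higher, where 4.97% of all genes with a symbol were. Without newborn replicate 4 these lists had 0, 1, 2 and 1 genes called higher, in that order, beside 2.79% of all probes (not genes). GFAP, the intermediate filament of astrocytes, read 12.92, 12.06, 12.59 and 12.13 at 145 d and 13.41, 13.02, 13.81 and 13.96 in the newborns, a rise of 1.12 ± 0.27 (2.18-fold, adjusted p = 0.0236 by limma). Its second probe gave 1.03 ± 0.27 (adjusted p = 0.0323), and without newborn replicate 4 the changes were 0.99 (adjusted p = 0.0516) and 0.94 (adjusted p = 0.0650). Of 8 astrocyte genes tested, GFAP was the only one called, and the water channel AQP4 changed by -0.80 (adjusted p = 0.206). ABCB1, the drug efflux pump of the blood-brain barrier, rose by 0.85 ± 0.17 (1.80-fold, adjusted p = 0.00802 by limma), from 7.58, 7.58, 7.39 and 7.34 to 7.81, 8.19, 8.28 and 9.02. It was the 1 gene called of 20 endothelial and barrier genes. PSAP, the precursor of the saposins that aid lipid breakdown in lysosomes, rose by 0.97 ± 0.15 (1.95-fold, adjusted p = 0.00304 by limma) by one probe, from 13.26, 13.39, 12.97 and 13.34 to 13.69, 14.24, 14.36 and 14.53. A further pair of PSAP probes, to another record, changed by 0.06 and 0.02. The cyclin CCND3 rose by 0.93 ± 0.19 (adjusted p = 0.00890 by limma), the only one called of 13 cell cycle genes.

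Falls were measured in 3 of 23 growth factors and receptors and 1 of 21 oxygen-responsive genes, beside 1.85% of all genes with a symbol. VEGFA, the main growth factor for vessels, read 9.36, 9.29, 10.05 and 9.62 at 145 d and 8.66, 8.30, 8.38 and 9.05 in the newborns, a fall of -0.98 ± 0.21 (1.98-fold lower, adjusted p = 0.0126 by limma). Its second probe fell by 1.03 ± 0.23 on the log2 scale (adjusted p = 0.0151 by limma), and neither lies in the dim area. Every newborn was below every fetus by both. VEGFA was the oxygen-responsive gene called, in a list with a median change of -0.06 and 3 falls without newborn replicate 4. The vasoconstrictor EDN1 read 7.04, 7.30, 7.25 and 8.51 in the newborns against 8.21, 8.66, 8.40 and 7.93, a difference of -0.78 that was not called (adjusted p = 0.101), and without newborn replicate 4 it was -1.11 (adjusted p = 0.00854). The oxygen-regulated factor HIF1A, which has a probe in the dim area, changed by 0.02 and -0.43 and was not called. Other growth factors fell: ANGPT1, a vessel-stabilizing ligand, by 0.67 ± 0.18 by one probe (adjusted p = 0.0336 by limma), FGF2 by 0.79 ± 0.21 by a probe inside the dim area (adjusted p = 0.0363, and 0.0906 without newborn replicate 4) and IGF1, insulin-like growth factor 1, by 0.67 ± 0.14 (adjusted p = 0.0117). IGF1 read 7.56, 7.84, 8.43 and 7.88 at 145 d and 7.32, 7.16, 6.99 and 7.56 in the newborns, so that 1 newborn matched the lowest fetus. The other ANGPT1 probe differed by -0.29 (adjusted p = 0.242) and the other FGF2 probe by -0.51 (adjusted p = 0.111), neither of them called. Of the 23, those that fell were VEGFA, ANGPT1 and FGF2, and none rose. IGF1 belongs to the list of the thyroid hormone, prolactin and IGF axis, of which it was the 1 gene called of 17.

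Of 12 genes of glucocorticoid activation and targets, NR3C1 and HSD11B1 fell and TXNIP rose, beside 1.85% of all genes called lower and 4.97% higher. Of the 12, 2 fell and 2 rose without newborn replicate 4. NR3C1, the glucocorticoid receptor, read 7.28, 7.38, 7.53 and 7.27 at 145 d and 7.03, 7.01, 6.79 and 6.29 in the newborns, a fall of -0.58 ± 0.12 (adjusted p = 0.0126 by limma). The probe lies in the dim area, and without newborn replicate 4 the fall was -0.42 (adjusted p = 0.0156). The mineralocorticoid receptor, named after its values were seen, fell by 1.00 ± 0.23 (adjusted p = 0.0172 by limma), from 11.84, 11.98, 11.63 and 12.08 to 11.16, 10.44, 10.88 and 11.04. Its second probe fell by 0.83 ± 0.19 (adjusted p = 0.0169), and both lie outside the area. HSD11B1, which regenerates active cortisol inside cells, fell by 1.49 ± 0.36 (adjusted p = 0.0231 by limma), with 9.34, 8.41, 7.70 and 6.40 in the newborns against 9.22, 9.57, 9.45 and 9.58. It is in the dim area: without newborn replicate 4 it fell by 0.97 (adjusted p = 0.0303), and newborn replicate 1 stayed at the fetal level. Its second probe, outside the area, differed by -0.39 and was not called (adjusted p = 0.151). TXNIP, an inhibitor of thioredoxin that is induced by glucose and glucocorticoids, rose by 1.33 ± 0.31 (2.52-fold, adjusted p = 0.0180 by limma), from 11.75, 11.68, 11.77 and 11.65 to 12.05, 12.54, 13.22 and 14.37. Its second probe, inside the dim area, differed by 0.73 and was not called (adjusted p = 0.0754), and without replicate 4 by 0.85 (adjusted p = 0.0475). TXN, thioredoxin itself, fell by 0.77 inside the dim area (adjusted p = 0.0276) and by 0.47 without replicate 4 (adjusted p = 0.0232), while its probe outside the area differed by -0.39 (adjusted p = 0.0857).

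**Figure D4:**
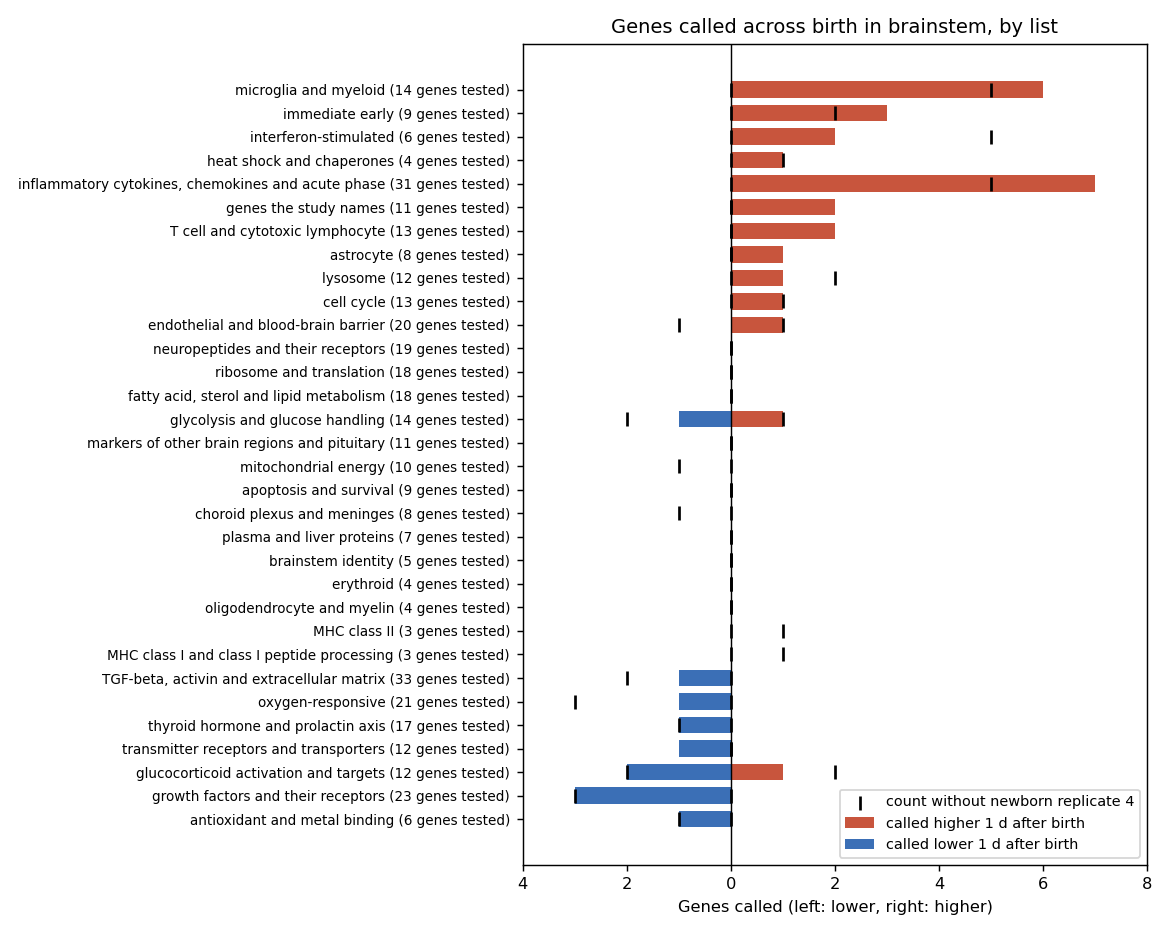
Number of genes called higher (red, right) or lower (blue, left) 1 d after birth in each list, with the number tested beside its name; black ticks give the count without newborn replicate 4. The microglia and myeloid list has 6 of 14 higher, against 4.97% of all genes with a symbol.

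Of 12 transmitter receptors and transporters tested, GRIA2 fell, beside 1.85% of all genes called lower, and none was called without newborn replicate 4. Other receptor genes outside that list are given beside it, GRM5 after its values were seen. The glutamate receptor subunit GRIA2 fell by 0.49 ± 0.13 (adjusted p = 0.0365 by limma), GRIA3 by 0.65 ± 0.16 (adjusted p = 0.0276) and GRM5, a metabotropic glutamate receptor, by 0.60 ± 0.13 (adjusted p = 0.0119). GRIA3 read 10.24, 10.57, 10.73 and 10.67 at 145 d and 10.03, 9.99, 10.03 and 9.55 in the newborns, and GRM5 7.27, 7.93, 7.60 and 7.79 against 7.32, 6.93, 6.78 and 7.17, where the groups overlapped. GRM5 was called without newborn replicate 4 (adjusted p = 0.0116), GRIA2 and GRIA3 were not (adjusted p = 0.0826 and 0.0637). SLC16A1, the lactate and ketone carrier MCT1, fell by 0.80 ± 0.20 (1.75-fold lower, adjusted p = 0.0236 by limma), from 10.64, 10.64, 10.85 and 10.98 to 10.10, 9.66, 9.99 and 10.14, with no overlap. TGFB2, a growth factor of neurons and glia, fell by 0.86 ± 0.20 (adjusted p = 0.0202), the 1 gene called of 33 TGF-beta, activin and matrix genes (2 without newborn replicate 4), again beside 1.85% of all genes. None of the 19 neuropeptide genes tested was called, and of oligodendrocyte genes none of 4. The steepest called fall outside the dim area belonged to the record EE751760, which read 9.71, 9.29, 9.29 and 9.96 at 145 d and 7.73, 7.65, 7.68 and 8.54 in the newborns, a fall of -1.66 ± 0.25 (adjusted p = 0.00196 by limma). EE804140 fell by 2.2 ± 0.55 inside the area (adjusted p = 0.0257) and by 1.35 without newborn replicate 4.

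Markers of other cell types were read beside these groups. Since 4.97% of all genes with a symbol were called higher and 1.85% lower, few or no calls in such short lists say little. Choroid plexus and meningeal genes had 0 of 8 called by limma, with a median of -0.22 and 1 of the 8 above 0. The list's median was -0.44 without newborn replicate 4, when the collagen COL1A2 was called lower (-0.51, adjusted p = 0.0345). Of erythroid genes 0 of 4 were called, with a median of -0.01, and of plasma and liver proteins 0 of 7, with a median of -0.06. HBB, a globin chain, read 12.92, 13.24, 13.69 and 13.36 at 145 d and 12.55, 12.16, 12.93 and 13.39 in the newborns by one probe and was not called. Their part in the results was not tested. No gene was called among 18 of ribosome and translation, 18 of fatty acid, sterol and lipid metabolism, 10 of mitochondrial energy and 9 of apoptosis and survival, although the mitochondrial ATP synthase subunit ATP5PO was called without newborn replicate 4 (-0.34, adjusted p = 0.0426). Of 26 genes that the study names, 11 could be matched to a probe by symbol here. The rest may lie among the 13466 of 15008 probes without a symbol. Of the 11, CD5 and ITGAM rose, and 0 were called without newborn replicate 4. The others were CD1D (-0.08 and -0.06), CD3D (0.59 and 0.65), CD3E (above), CD81 (0.57, adjusted p = 0.0551), CD9, FCGR2B (0.04), IL10, PSMB8 and TGFB1, none of them called. CD9 shows the dim area: its outer probe read 14.03 on newborn replicate 4 and its inner probe 10.26, where the other newborns read 13.25 to 13.60.

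The last fetal step, from 130 to 145 d, was measured on the same kind of arrays. It shares the 145 d arrays with the comparison above, so the values are given side by side and no relation between them was computed. There, 138 probes were called (1.04%), 53 of them higher (0.398%) and 85 lower (0.639%). The first mineralocorticoid receptor probe rose by 1.40 ± 0.23 from 130 to 145 d (adjusted p = 0.00491 by limma), from 10.48 ± 0.30 to 11.88 ± 0.19, and then fell to 10.88 ± 0.32 (SD, n = 4). SLC16A1 rose by 1.19 ± 0.20 in that step (adjusted p = 0.00501 by limma), from 9.59 ± 0.27 to 10.78 ± 0.17, and then fell to 9.97 ± 0.22. VEGFA stood at 9.56 ± 0.44 and 9.58 ± 0.34 at 130 and 145 d and fell to 8.60 ± 0.34. CHI3L1 went from 7.70 ± 0.16 at 80 d to 9.16 ± 0.42 at 130 d, 9.04 ± 0.37 at 145 d and 10.65 ± 0.55 after birth. HSP70.1 was at 10.02 ± 0.39 at 130 d and 9.23 ± 0.30 at 145 d before reaching 10.58 ± 0.45.

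**Figure D5:**
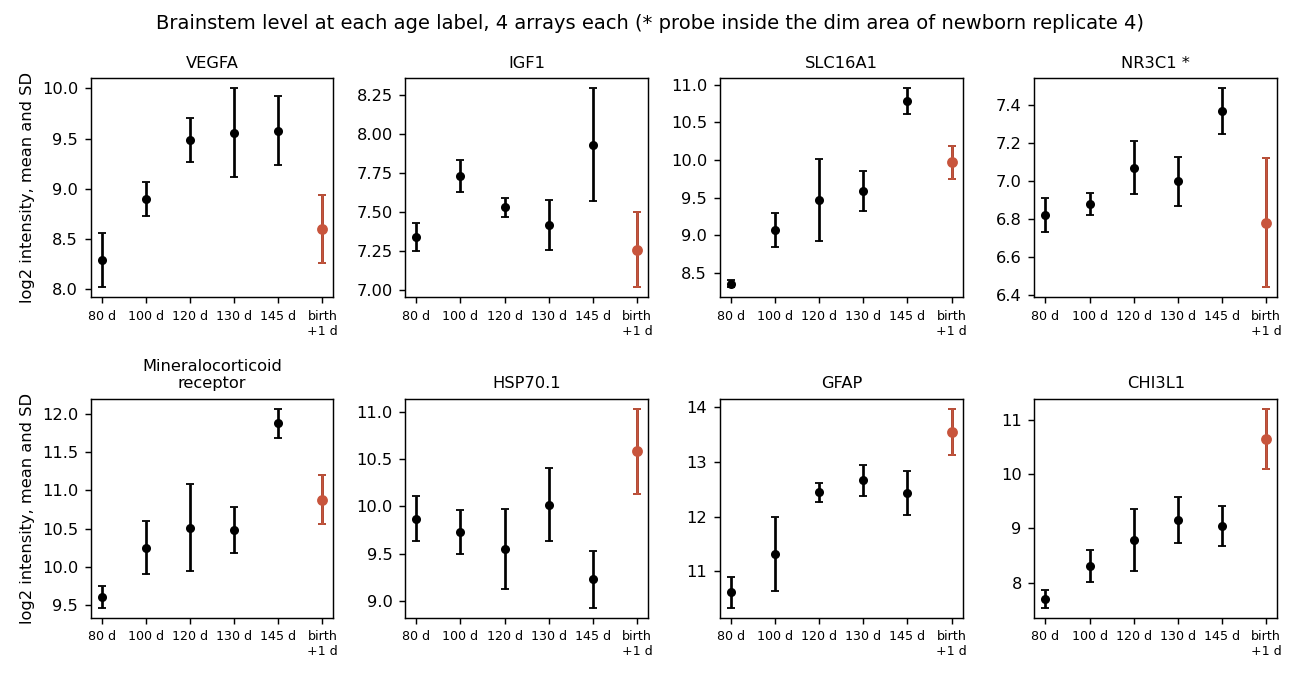
Mean log2 intensity with SD at each of the 6 age labels in brainstem, 4 arrays each, with the newborn in red; an asterisk marks a probe in the dim area. VEGFA, IGF1, SLC16A1, NR3C1 and the mineralocorticoid receptor are lower after birth than at 145 d, while HSP70.1, GFAP and CHI3L1 are higher.

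The same change was set against that of the other regions, each fitted on its own arrays. Cortex had 36 calls across birth (0.268% of probes tested there), hypothalamus 244 (1.81%) and hippocampus 1 (0.00758%). Direct tests of the difference gave 0 calls of 13048 against cortex (limma; 408 at an unadjusted p under 0.05, lowest adjusted p = 0.328) and 0 of 12994 against hippocampus (925 at an unadjusted p under 0.05, lowest adjusted p = 0.0977). Against hypothalamus 3 of 13060 were called (0.023%), all known by record only. EE772659 differed by -1.81, with -0.60 in brainstem and 1.21 in hypothalamus (adjusted p = 0.0153 by limma), and EE803488 by 1.69, with 0.61 against -1.08 (adjusted p = 0.0412). With all arrays the brainstem change of EE772659 was not called (adjusted p = 0.239 by limma), and the groups overlapped. It read 8.79, 8.82, 8.84 and 8.99 at 145 d and 7.25, 7.59, 8.83 and 9.38 in the newborns. Without newborn replicate 4 its change was -0.97 (adjusted p = 0.0175). That of EE803488 was called with all arrays (adjusted p = 0.0396), but without newborn replicate 4 it was 0.53 (adjusted p = 0.0867). FE037233 differed by 0.98 (adjusted p = 0.0307 by limma), with 0.22 in brainstem and -0.76 in hypothalamus. Its brainstem change was not called (adjusted p = 0.2 by limma), and this probe was well above background on 2 of the 4 fetal brainstem arrays. Without brainstem newborn replicate 4, 4 probes were called against hypothalamus. The methods describe all regions as taken from each brain. Same-numbered brainstem and cortex newborns deviated together (r = 0.441, 0.651, 0.344 and 0.246), the fetal pairs less (0.241, 0.002, 0.077 and 0.037), and brainstem and hippocampus newborns did not (-0.343, -0.013, -0.222 and 0.173). The brainstem and hypothalamus newborns gave 0.22, 0.415, -0.055 and 0.393. With age and replicate number as a block the counts were 3 against hypothalamus and 0 against the others. Regions were hybridised on different slides, so that region and slide cannot be told apart in these values. Among the genes above, CHI3L1 changed by 1.44 ± 0.29 in cortex (adjusted p = 0.0396) and 0.64 ± 0.62 in hypothalamus (adjusted p = 0.620), TC16824 by 2.76 ± 0.57 in cortex (adjusted p = 0.0444), and GFAP by 1.71 ± 0.26 in hypothalamus (adjusted p = 0.00438), all by limma. VEGFA changed by -0.44 ± 0.21 in cortex and -0.15 ± 0.31 in hypothalamus and was not called in either, and its difference from brainstem was not called (adjusted p = 0.860 against hypothalamus).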

How the data were processed

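RNA from 8 brainstem samples was read on 1-colour Agilent sheep arrays with 60-base probes (3 slides of 8 arrays, together with the other 16 brainstem samples). The deposited scanner files hold spot intensity as extracted by the authors with Agilent Feature Extraction (10.1.1.1 per the file headers). The authors' own normalized log2 table, deposited beside them, was used as an alternative. Depth has no counterpart on arrays: 72.0% to 83.6% of gene probes were well above background, and precision rests on how many arrays there are. Intensities were background-corrected (limma 3.58.1, R 4.3.3, normexp, offset 50), outlier-marked spots removed, quantile normalized over 95 arrays and averaged to 15008 probes. Probes at least 1.1 times the 95th percentile of 77 negative controls on 4 of the 24 brainstem arrays were kept. A fit over the 6 ages with eBayes gave newborn minus 145 d. A fit on 8 arrays leaves fewer residual degrees of freedom and also takes its spread from the 145 d and newborn arrays only. Which of these lowered its calls was not tested. The fit over the 6 ages was also run on simulated data, with the same spread at every age and no dim area. That run cannot show how the calls behave where the newborns vary more. Symbols for 1542 of 15008 probes came from the file or from RefSeq (ARS-UI_Ramb_v3.0). No genome of the array's build was used, so no coordinates are given.

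The genes named were up to 15 per direction with the greatest change among non-overlapping calls that keep their sign without newborn replicate 4 (13 falls met this), members of the lists, genes the study names, and 2 records a direction; the mineralocorticoid receptor, immunoglobulin, MHC, GRM5 and others were added after their values were seen. The members and lists were chosen with earlier results of these data known. A gene counted as called when 1 of its probes was. Alternatives covered background offset, processed signals, filters, slides, replicate numbers, array weights and each array left out. Results for 1 gene of the interferon list are not reported here.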

Additional observations from a re-analysis of the deposited data

Results flagged for a closer look

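Of 334 groups of 4 arrays examined over 171 probes of named genes, 20 had 1 array that stood apart from the other 3 by more of the group's range than the Dixon limit of 0.829 allows. Chance marks about 1 in 20 groups. Of the 20, 7 were newborn replicate 4, 1 was newborn replicate 2, none was newborn replicate 1 and 12 were 145 d arrays. No explanation was weighed.

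On newborn replicate 4, CD9 read 10.26 inside the dim area against 13.25 to 13.60 on the other newborns, and PPP1R12A read 6.36 inside it against 7.90 to 8.08. Outside the area, this array read 11.48 for ATF4 (others 10.92 to 10.98), 9.55 for GRIA3 (9.99 to 10.03), 8.54 for EE751760 (7.65 to 7.73), 8.94 for IGF1R (8.06 to 8.17) and 7.49 for GRIN1 (7.10 to 7.16). On newborn replicate 2, IL10 read 8.91 against 8.0 to 8.15.

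At 145 d, replicate 3 stood apart for IL10 by both probes (8.31 and 7.39), SELP (6.51), CTSS (11.81), HIF1A (7.58), JUND (9.20) and FCGR2B (6.70). Replicate 1 stood apart for ANGPT1 (7.42), HACD1 (10.48) and the MHC class I record M34674 (15.21), replicate 2 for CCND3 (10.33) and replicate 4 for CD1D (8.31).

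The change at birth differed between brainstem and hypothalamus by limma in 3 records: EE772659 (-1.81), EE803488 (1.69) and FE037233 (0.98).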

How the results depend on the processing

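The 641 calls (498 higher, 143 lower) became 1 (1 higher, 0 lower) in a limma fit on the 8 arrays alone, with 1344 at an unadjusted p under 0.05. In that fit each change is the same by construction, and only the spread differs. With array weights there were 378 calls (239 higher), where newborn replicate 4 weighed 0.0508. Falls were 254 with processed signals and 263 with the dim area left out. Leaving out 1 array gave 190 to 1345 calls, 143 to 994 higher and 47 to 351 lower. Calls were 313, 367, 271 and 190 without 145 d replicates 1 to 4, and 1345 without newborn replicate 1. The difference from hypothalamus was called in 5 probes with the dim area left out and 6 with processed signals, and that from hippocampus in 2 with processed signals. The step from 130 to 145 d gave 600 calls with processed signals and 32 to 146 when 1 array was left out, with 52, 49, 32 and 70 without 130 d replicates 1 and 3 and 145 d replicates 3 and 4. With the replicate block the counts were 570 calls (436 higher, 134 lower), 3 probes against hypothalamus, 0 against cortex and hippocampus, and 141 for the earlier step; same-numbered fetuses and newborns correlated by 0.001, 0.126, -0.112 and 0.149, so the numbers do not pair fetuses with newborns. Of 83 called probes named, none reversed in any alternative, and 15 were called in every alternative other than the 8 arrays alone. The lack of reversals is partly built in. The 8 arrays alone and the other filters leave a change as it was, and some probes were named because they keep their sign without newborn replicate 4. The causes were not tested.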

Other observations

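Further called genes lie outside the groups above. SLC2A5, a fructose transporter that microglia express, read 10.59, 10.16, 10.81 and 10.18 at 145 d and 11.03, 11.88, 10.84 and 11.29 in the newborns, a rise of 0.82 ± 0.20 (adjusted p = 0.0236 by limma) that was called without newborn replicate 4 (adjusted p = 0.0382). C5AR1, the receptor for complement fragment C5a, rose by 0.95 and 0.92 by its probes, with overlapping groups, and neither was called without that array. The autophagy receptor SQSTM1 rose by 0.79 (adjusted p = 0.0395), with 11.42, 11.24, 12.03 and 11.82 in the newborns and 10.97 at most at 145 d. Its second probe, in the dim area, differed by 0.43 (adjusted p = 0.339), and without newborn replicate 4 by 0.79 (adjusted p = 0.0154). XBP1, a transcription factor of the unfolded protein response, rose by 0.66 (adjusted p = 0.0418), with no overlap. By these probes neither passed without that array (adjusted p = 0.0769 and 0.0810). SLC12A4, a potassium and chloride cotransporter, rose by 0.60 ± 0.12 (adjusted p = 0.00788 by limma) and was called without it (adjusted p = 0.0166).

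Among falls, the chemokine XCL1 changed by -0.61 by one probe (adjusted p = 0.0415 by limma) and by -0.08 by the other (adjusted p = 0.864). A record described as an amino acid system N transporter fell by 0.77 inside the dim area (adjusted p = 0.0228) and by 0.51 without newborn replicate 4 (adjusted p = 0.0333). C5AR1 and this record were chosen after their values were seen.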
